A study of Mus musculus with 26 samples.

Results

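Chemokines are small secreted proteins that draw cells along a gradient, and their receptors are seven-pass membrane proteins that couple to G proteins. The genes described here are those whose symbol begins with Ccl, Cxcl, Ccr or Cxcr followed by a number in the array's annotation, apart from Cxcr4 and Cxcl12. They were chosen by name and not by level. The annotation named 51 such genes. Of these, 44 had a probe set that named no other gene, out of 18193 such genes on the array, and 7 (Ccl19, Ccl19-ps1, Ccl21a, Ccl21b, Ccl21c, Ccl21d and Ccl27b) lay only on probe sets shared with other genes. Each of the 44 was read from the probe set with the highest mean over the 26 arrays. A gene was tested when at least 3 arrays exceeded an intensity of 52.6, the median of all values. This left 24 of the 44 members among 12887 tested genes.

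The study measured RNA from a mouse model of osteosarcoma, a bone cancer whose cells lay down bone matrix, with 1 array per sample. The control group was 3 cultures of wild-type primary osteoblasts differentiated in vitro. The tumour groups were 15 primary osteosarcomas and 4 secondary tumours, and 4 cell lines made up the last group. Secondary tumours 29, 64 and 94 were transplanted osteosarcomas; the sample numbered 66 was tumour tissue grown from an osteosarcoma cell line, although its title calls it a cell line. The tumours' genotype, the strains and ages of the mice, the transplant hosts and any treatment were not among the labels at hand. Nothing in the labels states that the 3 osteoblast cultures came from separate mice, so p-values against them measure only the spread between these arrays.

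By receptor, the ligands fall into families with known roles. The inflammatory CC ligands draw monocytes, macrophages and, in bone, osteoclast precursors. Ligands of Cxcr2 draw neutrophils, and the interferon-induced ligands of Cxcr3 draw activated T cells and natural killer cells. Osteoblasts and other stromal cells make several of these ligands, whereas most of the receptors belong to blood-derived cells.

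Values are log2 intensities after a floor at 3.64, the log2 of the 20th percentile of all intensities (12.46), so a value of 3.64 means at or below the floor. Where every array of a group was at the floor, a fold is a lower bound and is written "at least". Median intensity lay between 44.4 and 48.2 on every cultured sample and between 50.4 and 58.8 on every tumour. The ratio of the 5' to the 3' Gapdh control probe sets, a measure of RNA integrity, lay between 0.916 and 0.967 for osteoblasts, 1.04 and 1.08 for lines, 0.839 and 1.08 for secondary tumours, and 0.656 and 1.03 for primary tumours. The hybridisation control probe sets separated the arrays into 3 sets: the 3 osteoblast cultures, then 7 primary tumours with the 4 secondary tumours, then the other 8 primary tumours with the 4 cell lines. Set and group therefore cannot be told apart in any comparison with osteoblasts or between secondary tumours and cell lines. The mean of 8 osteoblast markers was 10.42 to 10.59 for osteoblasts, against 7.65 to 9.38 for lines, 7.84 to 11.58 for primary and 9.60 to 11.50 for secondary tumours. The cultures also carried adipocyte markers, with a mean over 8 genes of 10.10 to 10.16, against 4.95 to 6.81 on all other arrays. The mean of 15 skeletal muscle markers reached 10.46 among primary tumours and 8.6 among lines, against at most 4.92 on osteoblasts and secondary tumours. The part of fat or muscle cells in any result below was not tested.

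Most chemokine genes were dim or varied little over the arrays. Of the 44 members, 15 spanned at least 3 log2 units over the 26 arrays, and 10 were called in at least 1 of 6 comparisons between groups, that is, had an adjusted p below 0.05 in limma and a difference of at least 2-fold. Of the 20 members that did not pass the filter, 17 stayed under a log2 intensity of 6 on every array, and Ccl20 was at the floor on all of them. The other 3, Ccl3, Cxcl3 and Cxcl11, exceeded 7 on 1 or 2 primary tumours.

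**Figure D1:**
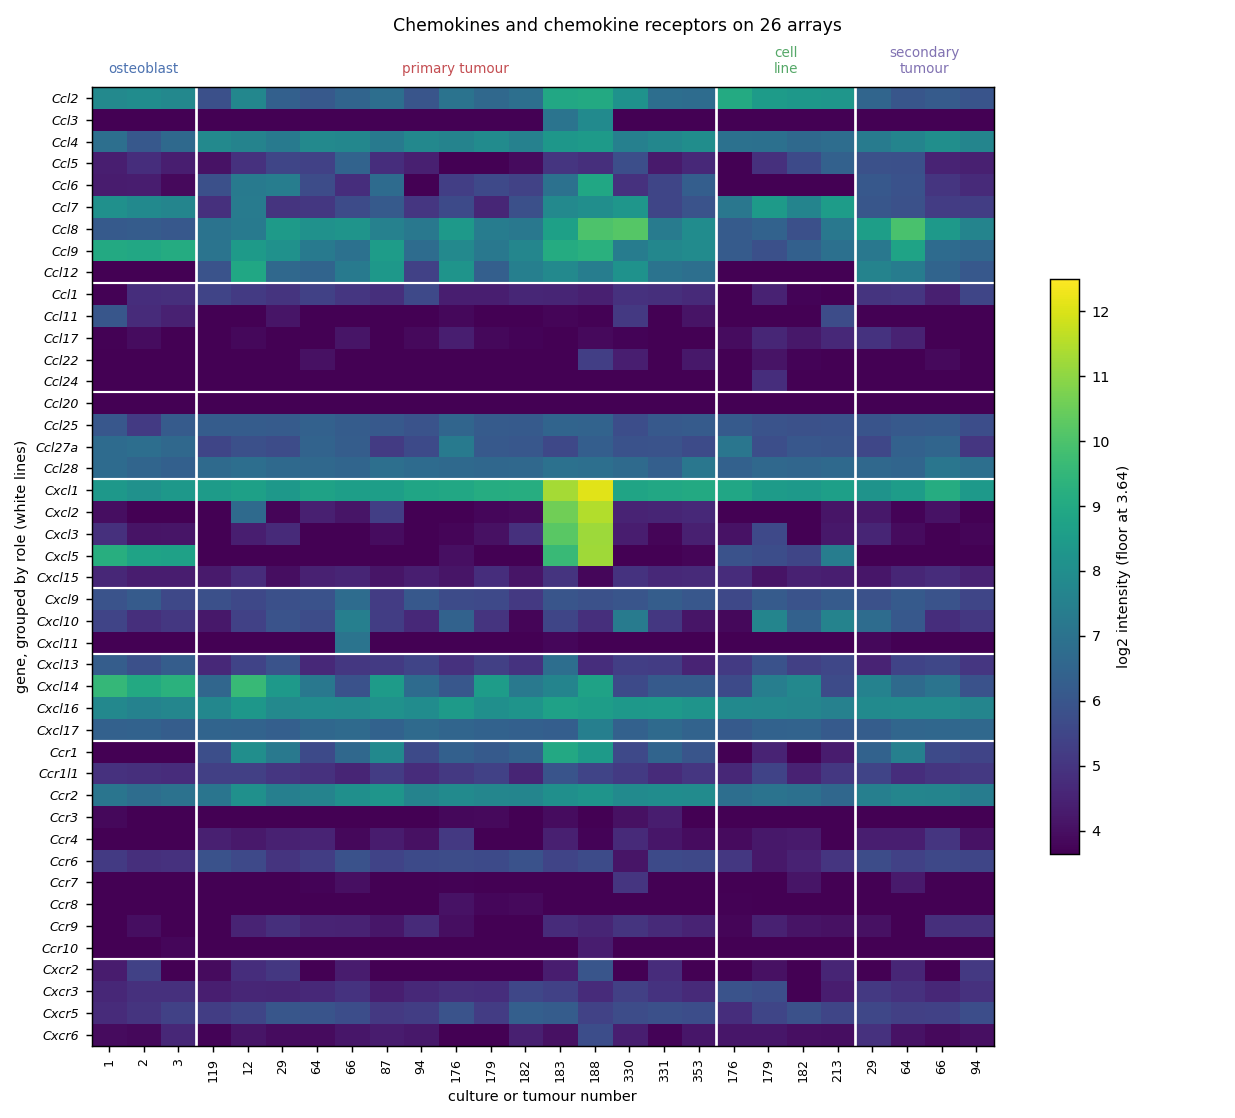
Log2 intensity (colour, from the floor at 3.64 upwards) of the 44 members in rows and the 26 arrays in columns, with arrays split by group and genes by role. Primary tumours 183 and 188 hold the brightest cells, in the Cxcr2 ligand rows, and Ccl12 is dark in all osteoblast cultures and cell lines.

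The inflammatory CC ligands divided by sample type. Ccl12, Ccl8 and Ccl4 were higher in both kinds of tumour than in osteoblasts, and Ccl6 was higher in primary tumours, while Ccl7 and Ccl9 were lower in both. Of this family's 9 genes, 8 were tested, and against osteoblasts 4 rose and 2 fell in primary tumours, where 6.58% of all tested genes rose and 11.9% fell. In secondary tumours 3 rose and 3 fell, where 7.71% of all genes rose and 10.8% fell. The mean of 15 macrophage markers lay between 4.86 and 5.19 on the 7 cultured samples, between 7.95 and 10.08 on primary tumours and between 8.02 and 9.62 on secondary tumours, and the part of macrophages in these differences was not tested. In bulk RNA, fewer cells of a type and less RNA per cell cannot be told apart.

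Ccl12, a mouse ligand of Ccr2 that attracts monocytes, was at the floor in all 3 osteoblast cultures and all 4 cell lines. Among the 15 primary tumours it ran from 5.34 (tumour 94) through a median of 7.24 to 8.92 (tumour 12), and the secondary tumours read 7.62 (29), 7.36 (64), 6.49 (66) and 6.07 (94). No tumour array overlapped with a cultured one. Ccl12 passed the filter through tumour arrays alone, as did Ccl6 and Ccr1 below. Their entry into the test therefore depended on their levels in tumours. The primary tumours were at least 11.9-fold above osteoblasts (log2 difference 3.57 ± 0.50 SE, adjusted p = 3.93e-06) and at least 11.9-fold above the cell lines (adjusted p = 1.92e-06). Secondary tumours were at least 9.49-fold above osteoblasts (3.25 ± 0.60, adjusted p = 0.000208) and above the lines (adjusted p = 0.000178).

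Ccl8, a monocyte-attracting ligand made by macrophages and stromal cells, followed the same order without reaching the floor. Osteoblasts read 6.16, 6.23 and 6.08, and the cell lines 6.19 (176), 6.43 (179), 5.79 (182) and 7.19 (213). The primary tumours began at 7.0 (119), had a median of 7.93 and reached 10.17 (330), with tumour 188 at 10.04. Secondary tumours read 8.62 (29), 9.97 (64), 8.38 (66) and 7.64 (94). All tumours lay above all osteoblasts, and only line 213 reached into the tumour range. The differences were 1.90 ± 0.53 for primary tumours over osteoblasts (adjusted p = 0.00584), 2.49 ± 0.64 for secondary tumours over osteoblasts (adjusted p = 0.00415), and -1.66 ± 0.48 for lines against primary tumours (adjusted p = 0.00823).

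Ccl6, a Ccr1 ligand of myeloid cells, was at the floor in all 4 lines and read 4.32, 4.34 and 3.88 in osteoblasts. Primary tumours went from the floor (94) through a median of 5.70 to 8.90 (188), and the secondary tumours read 6.09, 5.86, 5.01 and 4.68 (29, 64, 66 and 94). Unlike for Ccl8, primary tumour 94 fell below the osteoblasts. The rise over osteoblasts was 1.83 ± 0.63 in primary tumours (adjusted p = 0.0217), and secondary tumours, at 1.23 ± 0.76 against osteoblasts (adjusted p = 0.218), were not called. The call for primary tumours was lost without any single osteoblast culture (1.68 to 1.91) and with the floor at the 40th percentile (1.07). Cell lines were at least 5.17-fold below primary tumours (adjusted p = 0.00197), a call that was also lost with the higher floor.

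Ccl4, an inflammatory ligand of macrophages and lymphocytes, moved within a narrow range. Osteoblasts read 6.89, 6.08 and 6.67, cell lines 6.66 to 6.94, and secondary tumours 7.31 (29), 7.64 (64), 8.03 (66) and 7.66 (94), with primary tumours between 7.28 and 8.47 around a median of 7.74. Every tumour exceeded every cultured sample. The rise over osteoblasts was 1.21 ± 0.20 in primary tumours (adjusted p = 3.04e-05) and 1.11 ± 0.24 in secondary tumours (adjusted p = 0.000931). Without osteoblast culture 2, the lowest, both fell below 2-fold (0.98 and 0.88), and without secondary tumour 66 the second was 0.99. Its close relative Ccl3, a ligand of Ccr1, was at the floor on 24 arrays and read 7.05 and 7.89 in primary tumours 183 and 188.

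Ccl2 and Ccl7, ligands of Ccr2 that mobilise monocytes, were brighter in the lines than in tumours of either kind. Ccl2 read 7.80, 7.96 and 7.78 in osteoblasts and 9.04 (176), 8.49 (179), 8.37 (182) and 8.28 (213) in the lines. Across primary tumours it ran from 5.81 (119) through a median of 6.82 to 9.03 (188), and the secondary tumours read 6.54, 6.0, 6.18 and 5.93 (29, 64, 66 and 94). Among primary tumours only 183 (8.95), 188 (9.03) and 330 (8.17) exceeded the osteoblasts, and primary tumours against osteoblasts, at -0.81 ± 0.49, were not called (adjusted p = 0.183). Lines exceeded primary tumours by 1.51 ± 0.43 (adjusted p = 0.00850) and secondary tumours lay 2.38 ± 0.55 below lines on the log2 scale (-2.38, adjusted p = 0.00218).

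Ccl7 read 8.09, 7.85 and 7.67 in osteoblasts and 7.17, 8.47, 7.63 and 8.53 in lines 176, 179, 182 and 213. Its range in primary tumours was 4.6 (179) through a median of 5.66 to 8.30 (330), with 183 at 7.81 and 188 at 8.01, and secondary tumours read 6.02, 5.82, 5.22 and 5.25 (29, 64, 66 and 94). The same 3 primary tumours that stood highest for Ccl2 stood highest here. Ccl7 fell in primary tumours against osteoblasts by 1.83 on the log2 scale (-1.83 ± 0.61, adjusted p = 0.0176) and in secondary tumours by 2.29 (-2.29 ± 0.73, adjusted p = 0.0172). Lines exceeded primary tumours by 1.91 ± 0.54 (adjusted p = 0.00771). The fall in primary tumours was no longer called without osteoblast culture 1 or 2 (-1.72 and -1.84). It was also not called with the 8 primary tumours of the lines' set alone (-1.43). The fall in secondary tumours was not called without culture 1 (-2.19).

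Within the set of arrays that held both the lines and 8 primary tumours, the excess of the lines was 1.01 for Ccl2 (adjusted p = 0.0690) and 1.5 for Ccl7 (adjusted p = 0.0526), and neither was called. That set contains primary tumours 183, 188 and 330. Without 183 and 188, which were picked out by their values, and with both sets of primary tumours, the excess was 1.81 for Ccl2 and 2.19 for Ccl7, given without a test. Ccl2 was also called lower in secondary tumours than in osteoblasts (-1.69 ± 0.59, adjusted p = 0.0281). That call was lost without any single osteoblast culture, without secondary tumour 64 or 94 (values -1.72 to -1.61 over these 5), and with tumour number as a random block (-1.41, adjusted p = 0.0613).

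Ccl9, a Ccr1 ligand that osteoclasts and their precursors make and respond to, read 9.01, 8.96 and 9.07 in osteoblasts. Lines read 6.19 (176), 5.79 (179), 6.35 (182) and 6.93 (213). For primary tumours the range was 6.75 (94) through a median of 7.73 to 9.26 (188), and secondary tumours read 7.19, 8.78, 6.72 and 6.61 (29, 64, 66 and 94). Lines 176, 179 and 182 lay below every tumour, and only primary tumours 183 (9.08) and 188 reached above the osteoblasts. The fall from osteoblasts was -2.70 ± 0.53 in lines (adjusted p = 0.000948), -1.69 ± 0.53 in secondary tumours (adjusted p = 0.0157; not called without secondary tumour 94, -1.45) and -1.20 ± 0.44 in primary tumours (adjusted p = 0.0303). The last was not called without any single osteoblast culture (-1.23 to -1.17), with quantile normalisation (-0.97), or with the 8 primary tumours of the lines' set alone (-1.01). With every kept probe set in the model, a second one for Ccl9 was called lower in the same 3 comparisons, at -3.5, -2.25 and -1.86 in that order, where 6.38%, 11% and 12.3% of 22998 probe sets were called lower.

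Ccl5, a ligand that T cells and virus-stimulated cells make, was not called in any of the 6 comparisons, with differences of 0.01 to 0.62 in size. It was highest in primary tumour 66 (6.46) and line 213 (6.39).

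**Figure D2:**
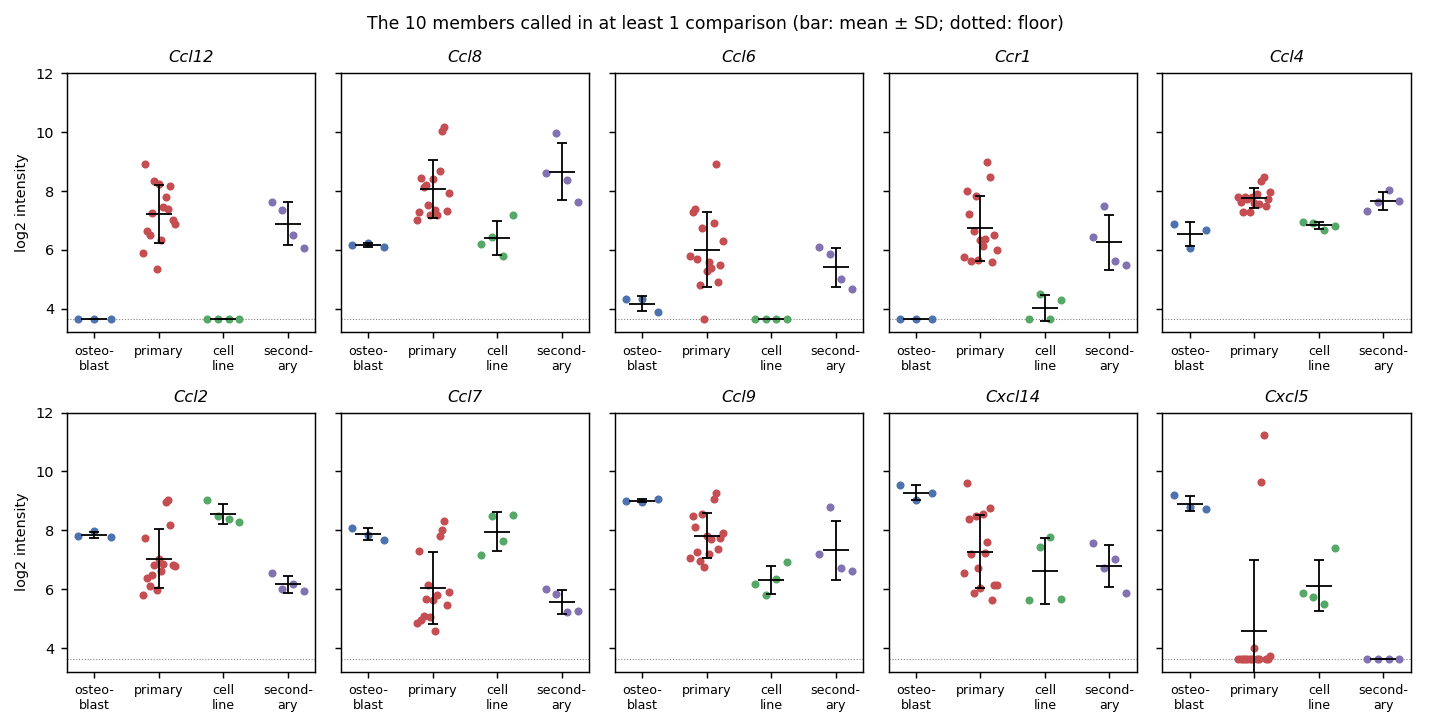
Log2 intensity of the 10 members called in at least 1 comparison, with 1 point per array in each of the 4 groups and bars for the mean and SD. Ccl12, Ccl8, Ccr1 and Ccl4 sit higher in tumours than in osteoblasts, Ccl2 and Ccl7 are high in both kinds of culture, and Cxcl5 is high in osteoblasts and in 2 primary tumours.

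These ligands lie in 2 groups of neighbouring genes on mouse chromosome 11 (order from RefSeq, GRCm38.p6): Ccl2, Ccl7, Ccl11, Ccl12, Ccl8 and Ccl1 in the first, and Ccl5, Ccl9, Ccl6, Ccl3 and Ccl4 in the second. Neighbours did not move alike. In the first group, secondary tumours were lower than osteoblasts for Ccl2 and Ccl7 and higher for Ccl12 and Ccl8. Within the second, Ccl9 fell and Ccl4 rose in the same comparison.

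Among the CC receptors, Ccr1, which binds Ccl3, Ccl6, Ccl7 and Ccl9 and marks monocytes, macrophages and osteoclast precursors, was the only one called. It was at the floor in all 3 osteoblast cultures and in lines 176 and 182, and read 4.50 and 4.30 in lines 179 and 213. Primary tumours ran from 5.61 (330) through a median of 6.38 to 8.99 (183), and the secondary tumours read 6.43, 7.5, 5.63 and 5.47 (29, 64, 66 and 94). No tumour overlapped with a cultured sample. Primary tumours were at least 8.59-fold above osteoblasts (3.10 ± 0.57, adjusted p = 0.000122), and lines were below primary tumours by -2.72 ± 0.51 (adjusted p = 0.000224). Secondary tumours were at least 6.15-fold above osteoblasts (2.62 ± 0.69, adjusted p = 0.00481) and above lines by 2.24 ± 0.64 (adjusted p = 0.0105). The calls for secondary tumours were lost with the floor at the 40th percentile (1.2 in both) or when Ccr1's probe sets were averaged (1.47 against osteoblasts and 1.16 against lines).

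Ccr2, the receptor for Ccl2, Ccl7, Ccl8 and Ccl12 on inflammatory monocytes, depended on the probe set. Its brightest probe set lay between 6.61 and 7.09 on cultured samples, 7.08 and 8.25 on primary tumours and 7.37 and 7.68 on secondary tumours. Primary tumours exceeded osteoblasts there by 0.87 ± 0.17 (adjusted p = 0.000258), which is under 2-fold. Another Ccr2 probe set was at the floor on all 7 cultured samples, ran from 4.51 to 7.31 in primary tumours, and read 6.90, 7.64, 4.96 and 5.55 in secondary tumours 29, 64, 66 and 94. This other probe set passed the filter through tumour arrays alone. In the model of all kept probe sets, that one was at least 2.19 higher on the log2 scale in primary tumours than in osteoblasts (adjusted p = 0.0015), where 8.18% of the 22998 probe sets were called higher. It was at least 2.62 higher in secondary tumours (adjusted p = 0.00222; 9.71% called higher). Which of the 4 Ccr2 probe sets follows the transcript was not tested.

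Ccr6, the receptor for Ccl20, was tested and not called in any comparison, while Ccr1l1, Ccr3, Ccr4, Ccr7, Ccr8, Ccr9 and Ccr10 did not pass the filter and stayed under 6 on all arrays. The same holds for Cxcr2, Cxcr3 and Cxcr6, of which Cxcr2, the receptor of the neutrophil-attracting ligands, was highest in primary tumour 188 (5.98). Cxcr5, a receptor of B cells and follicular T cells, was tested and not called. Cxcr1 is not analysed here.

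Among the Cxcr2 ligands, 2 primary tumours stood apart. Cxcl1, Cxcl2, Cxcl3 and Cxcl5, which all draw neutrophils through Cxcr2, stood far above the other tumours in primary tumours 183 and 188. These samples were picked out by their values, so their levels are given without a test, and both belong to the set of arrays that also holds the cell lines.

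Cxcl1 read 11.32 in tumour 183 and 12.10 in tumour 188, against 8.37 to 9.15 in the other 13 primary tumours and 8.11 to 9.11 in the remaining groups. A dimmer Cxcl1 probe set read 10.88 and 11.87 in these tumours, against 3.64 to 4.88 in the other 13. Cxcl2 read 10.58 and 11.46; the next tumours were 12 (6.70) and 87 (5.30), and all cultures and secondary tumours lay at or below 4.2. Cxcl3, which did not pass the filter, read 10.23 and 11.22, with no other array above 5.6. Both tumours thus carried all 3 ligands at levels that no other sample approached.

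Cxcl5 had a further pattern. Osteoblasts read 9.21, 8.80 and 8.72, the lines 5.87 (176), 5.72 (179), 5.49 (182) and 7.40 (213), and all 4 secondary tumours were at the floor. Of the primary tumours, 11 were at the floor, 176 read 4.02, 353 read 3.75, and tumours 183 and 188 read 9.65 and 11.24. Apart from these tumours, Cxcl5 was thus present in both kinds of cultured cell and near or at the floor in tumour tissue. Primary tumours were below osteoblasts by -4.33 ± 1.15 (adjusted p = 0.00393), or by -5.23 without 183 and 188, given without a test. Secondary tumours were at least 38.6-fold below osteoblasts (-5.27 ± 1.39, adjusted p = 0.00492). Lines lay between, at -2.79 ± 1.39 against osteoblasts (adjusted p = 0.185) and 1.54 ± 1.03 against primary tumours (adjusted p = 0.246). Secondary tumours against lines were not called either (adjusted p = 0.145). The main model pools the spread of all 4 groups, and Cxcl5 had an SD of 2.403 among primary tumours. With only the 2 groups compared, limma called lines below osteoblasts (adjusted p = 0.00516) and secondary tumours below lines (adjusted p = 0.00231). With array weights, lines were also called below osteoblasts (adjusted p = 0.0045). Most other settings left both comparisons uncalled. Without tumours 183 and 188 the lines exceeded primary tumours by 2.44, again without a test. Leaving out tumour 188 alone gave 2.02 for lines over primary tumours, also without a test.

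**Figure D3:**
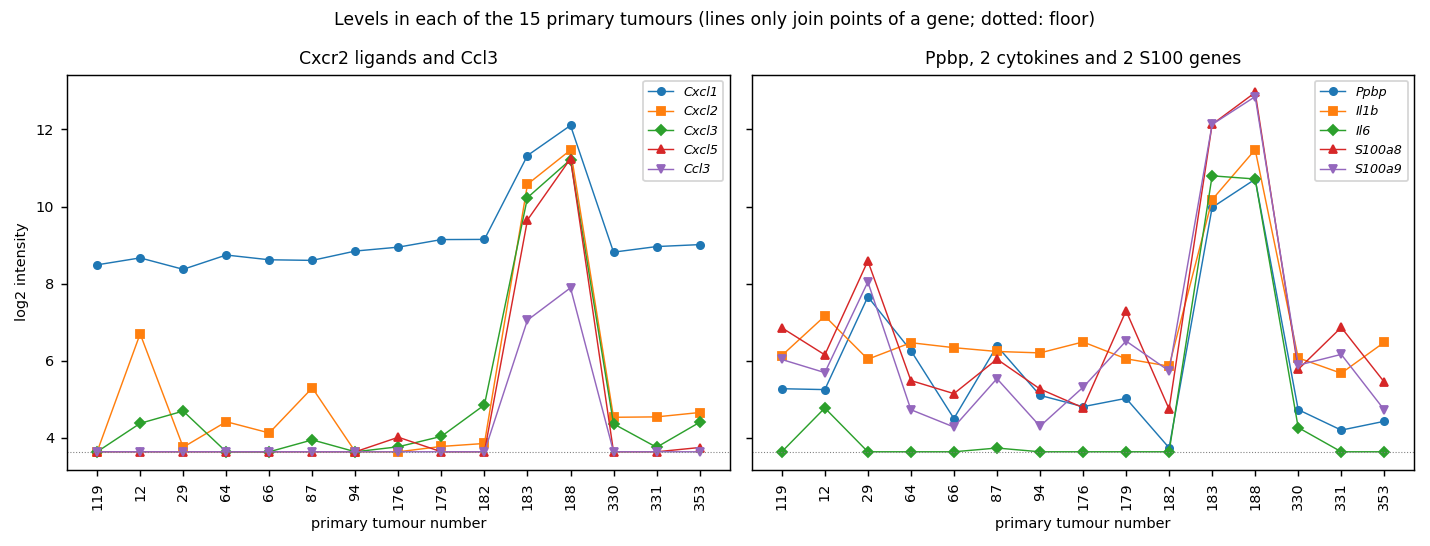
Log2 intensity of Cxcl1, Cxcl2, Cxcl3, Cxcl5 and Ccl3 (left) and of Ppbp, Il1b, Il6, S100a8 and S100a9 (right) in each of the 15 primary tumours. All 10 genes peak in tumours 183 and 188, where Cxcl1 reads 11.32 and 12.10 and S100a8 reads 12.13 and 12.96.

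Other genes of inflammation stood high in the same tumours. Il1b, which encodes the cytokine interleukin 1 beta, read 10.18 and 11.48 in 183 and 188, against 5.68 to 7.16 in the other 13 primary tumours. Il6, encoding interleukin 6, read 10.80 and 10.71, against 3.64 to 4.77. Ppbp, a further Cxcr2 ligand carried by platelets, read 9.98 and 10.71, against 3.74 to 7.66. S100a8 and S100a9, from the list of neutrophil markers, read 12.13 and 12.13 in 183 and 12.96 and 12.85 in 188. Tumour 29 was next, at 8.59 and 8.04. The mean of 8 neutrophil markers was 7.63 in 183 and 7.79 in 188, against 5.45 to 6.83 in the other primary tumours. This mean includes S100a8 and S100a9. With those genes set aside, the mean of the other markers was not highest in 183 or 188 among the primary tumours. The part of neutrophils in these levels was not tested.

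The promoters of 3 of these ligands are shown because they share a run of letters that has the form of an NF-kB site. NF-kB is a transcription factor activated by inflammatory signals. Each window is the 250 bases before the start of the gene (RefSeq, GRCm38.p6, plus strand), printed 5' to 3' with the shared run in capitals: Cxcl1 at chr5:90890995-90891244, Cxcl2 at chr5:90903649-90903898 and Cxcl3 at chr5:90785851-90786100.
Cxcl1: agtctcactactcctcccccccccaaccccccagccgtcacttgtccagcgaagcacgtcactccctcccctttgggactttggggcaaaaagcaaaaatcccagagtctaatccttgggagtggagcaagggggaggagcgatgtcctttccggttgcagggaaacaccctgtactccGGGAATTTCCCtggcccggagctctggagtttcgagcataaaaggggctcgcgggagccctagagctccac
Cxcl2: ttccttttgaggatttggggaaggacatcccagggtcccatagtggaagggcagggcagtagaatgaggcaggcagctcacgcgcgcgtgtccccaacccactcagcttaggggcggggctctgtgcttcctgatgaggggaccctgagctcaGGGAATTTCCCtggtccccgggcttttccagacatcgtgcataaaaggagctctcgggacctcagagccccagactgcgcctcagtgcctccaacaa
Cxcl3: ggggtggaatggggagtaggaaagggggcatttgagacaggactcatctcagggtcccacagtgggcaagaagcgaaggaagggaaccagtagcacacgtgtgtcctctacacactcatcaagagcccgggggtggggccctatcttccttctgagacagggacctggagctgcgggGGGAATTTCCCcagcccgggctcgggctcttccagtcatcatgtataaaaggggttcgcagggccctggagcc
The run GGGAATTTCCC is the longest that the 3 windows have in common on the same strand. It begins 71 bases before the start in Cxcl1, 97 in Cxcl2 and 73 in Cxcl3. Searched on both strands in windows of 300 bases, it occurred in 14 of 32851 windows of the genome's genes (0.0426%). Of 31 member genes with a window, these 3, from which it was taken, were the only ones to hold it. Cxcl5 had no window and was not searched. The TATA-like letters ATAAAAGG, present in 1.76% of windows, lie in these 3 promoters and in those of Ccl8 and Ccl9. The AP-1 letters TGANTCA lie in 7.81% of windows and in those of 8 member genes. A match describes the letters only and shows no binding, and the promoters and motifs were chosen with the values known. In the order of the genome, Cxcl5, Ppbp, Pf4, Cxcl3, Cxcl15, Cxcl1 and Cxcl2 are neighbours on chromosome 5.

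The interferon-induced ligands of Cxcr3 ranged widely within groups. Cxcl10 and Cxcl9 were tested and not called. Cxcl10 read 5.45, 4.84 and 5.06 in osteoblasts, and 3.81 (176), 7.68 (179), 6.41 (182) and 7.58 (213) in the lines. In primary tumours it ran from 3.75 (182) through a median of 5.24 to 7.48 (66), with tumour 330 at 7.33, and secondary tumours read 6.77, 6.09, 4.79 and 5.09 (29, 64, 66 and 94). The groups overlapped throughout, and the lines exceeded osteoblasts by 1.25 ± 0.82 (adjusted p = 0.331). With single samples left out this ran from 0.82 without line 179 to 2.11 without line 176, and array weights gave 1.56, which was called (adjusted p = 0.0156).

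Cxcl11, which did not pass the filter, read 7.06 in primary tumour 66 and at most 3.84 elsewhere. The brighter Cxcl9 probe set peaked in the same tumour (6.78), as did a second one, at 9.22. That second probe set read 6.90 to 7.64 in osteoblasts, 3.64, 5.91, 3.64 and 6.73 in lines 176, 179, 182 and 213, 7.12, 7.95, 5.6 and 4.71 in secondary tumours 29, 64, 66 and 94, and 3.64 to 6.32 in the other primary tumours. In the model of all kept probe sets it was lower in primary tumours than in osteoblasts (-2.67 ± 0.86, adjusted p = 0.0137; 12.3% of probe sets were called lower). The mean of 13 interferon response genes was 7.92 to 8.46 in osteoblasts, whose Cxcl10 read 4.84 to 5.45. It was 5.96 in line 176 against 8.31 to 9.57 in the other lines, and 8.59 in tumour 66 and 8.28 in tumour 330 against 5.93 to 7.87 in the other primary tumours, and 6.47 to 7.75 in secondary tumours.

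Cxcl14, a ligand made by epithelial and stromal cells, was high in osteoblasts at 9.54, 9.02 and 9.28. Lines read 5.64 (176), 7.42 (179), 7.78 (182) and 5.66 (213). The 15 primary tumours ran from 5.64 (330) through a median of 7.19 to 9.60 (12), and secondary tumours read 7.56, 6.71, 7.04 and 5.86 (29, 64, 66 and 94). Only primary tumour 12 reached the osteoblasts. The difference from osteoblasts was -2.01 ± 0.66 in primary tumours (adjusted p = 0.0164), -2.66 ± 0.80 in lines (adjusted p = 0.0246) and -2.49 ± 0.80 in secondary tumours (adjusted p = 0.0175). These calls rest on few cultures. The first was lost without osteoblast culture 1 or 3 (-1.88 and -2.01), the second without any single osteoblast culture or line 176 or 213 (-2.79 to -2.33) and with quantile normalisation (-2.27), and the third without culture 1 or secondary tumour 94 (-2.36 and -2.18). A second Cxcl14 probe set fell in the same 3 comparisons (-2.68, -2.97 and -3.54).

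Cxcl16, a ligand of Cxcr6 that also exists as a membrane protein on macrophages, varied little on its brighter probe set, from 7.52 to 8.71. Lines were below primary tumours there by -0.47 ± 0.14 (adjusted p = 0.0110), which is under 2-fold. On its other probe set, tested with all kept probe sets, they were lower by -1.45 ± 0.34 (adjusted p = 0.00173; 8.28% of probe sets were called lower). Cxcl13, the B-cell-attracting ligand of Cxcr5, and Cxcl17 were not called.

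The homeostatic and barrier ligands Ccl25, Ccl27a and Ccl28 were tested and not called, and the eosinophil and type 2 ligands Ccl1, Ccl11, Ccl17, Ccl22 and Ccl24 did not pass the filter. In all, 11 of the 24 tested members were neither called nor spanned 3 log2 units. Their spans over the arrays were 0.80 to 2.82, and their differences over the 6 comparisons ran from -0.99 to 0.87.

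Set against all tested genes, the share of members called was above the background in each comparison of tumour tissue with cultured cells, without a test of that excess. In primary tumours against osteoblasts 9 of 24 were called, where 18.5% of the 12887 genes were. Of these, 5 rose (6.58% of all genes rose) and 4 fell (11.9% fell). Among those that rose, Ccl12, Ccr1 and Ccl6 had passed the filter through tumour arrays alone. In secondary tumours against osteoblasts the count was also 9, against a background of 18.5%: 4 rose (7.71%) and 5 fell (10.8%). The median difference of the 24 was 0.33 in the first, against -0.07 over all genes, and 0.22 in the second, against -0.02. These comparisons share the same 3 osteoblast arrays.

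In cell lines against osteoblasts 2 of 24 were called, Ccl9 and Cxcl14, both lower, against a background of 8.22% (1.58% higher and 6.64% lower), and the members' share was 8.33%. Lines against primary tumours gave 7 of 24 with a background of 11.7%: 2 rose, Ccl2 and Ccl7 (4.72% of all genes rose), and 5 fell, Ccl12, Ccr1, Ccl6, Ccl8 and Ccl9 (7.03% fell). With the 8 primary tumours of the lines' own set, 7 were again called, all lower: the same 5 with Ccl4 (-1.05) and Ccr2 (-1.07). Secondary tumours against lines gave 5 of 24 with a background of 13.2%: Ccl12, Ccl8 and Ccr1 higher (8.4%) and Ccl2 and Ccl7 lower (4.77%).

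Groups that did not overlap on any array were counted apart from the calls. Against osteoblasts this held for 5 of 24 members in primary tumours (26.3% of all genes), 6 in lines (41.1%) and 14 in secondary tumours (52.4%). It held for 4 members between lines and primary tumours (9.4%), 10 between secondary tumours and lines (32.5%) and 0 between secondary and primary tumours (0.0931%). The members' share was below that of all genes for primary tumours and for lines against osteoblasts.

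**Figure D4:**
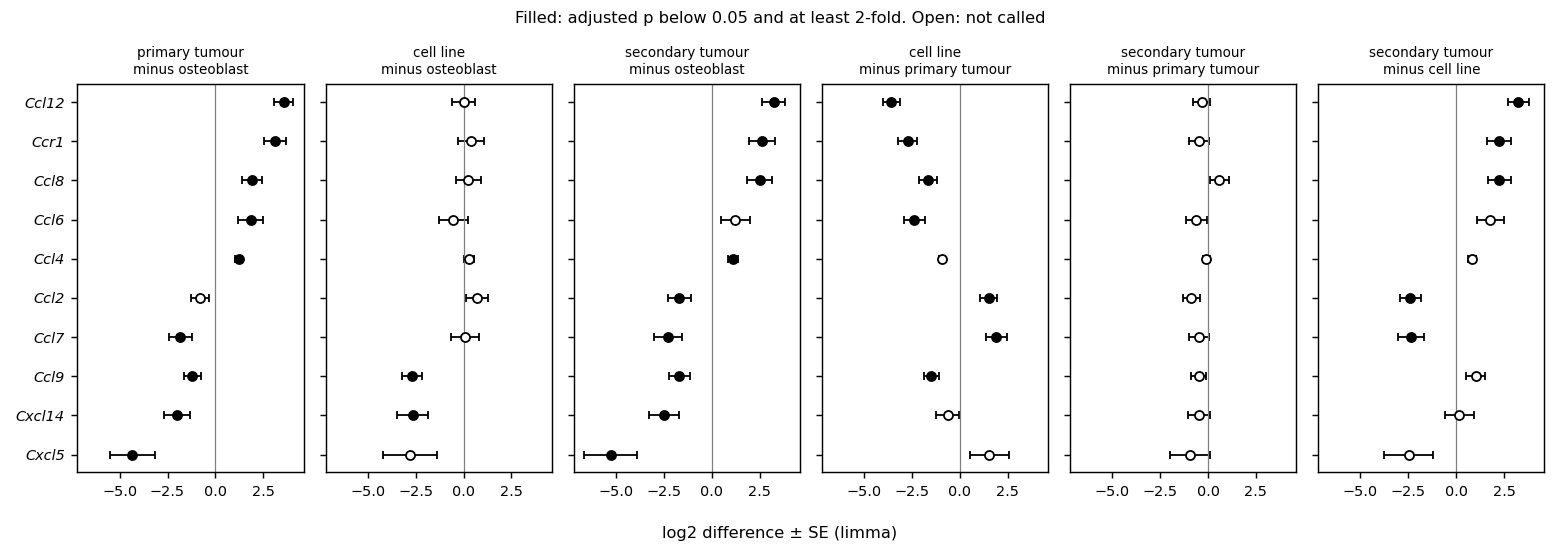
Log2 difference with its SE from limma for the 10 called members in each of the 6 comparisons, with filled points for called members. Ccl12 and Ccr1 are filled in every comparison of tumour tissue with cultured cells, at 2.24 to 3.57 in size, and no point is filled for secondary against primary tumours.

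No member passed the threshold between secondary and primary tumours. In limma 0 of 24 were called, where 0.00776% of all genes, a single gene, were; 1 member, Cxcl16, had an unadjusted p below 0.05 (-0.34 ± 0.14). Differences ran from -1.33 to 0.60 with a median SE of 0.41 over the 24 members, which limits what 4 secondary tumours could show. Among the 7 primary tumours of the same set of arrays 0 were called. Each secondary tumour correlated best with the primary tumour of its own number, and blocking on that number also gave 0 calls.

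Within the 4 matched pairs, Ccl8 was higher in the secondary tumour in 4 of 4, by 0.16 (29), 1.84 (64), 0.17 (66) and 0.47 (94). Ccl12 was higher in 3 of 4 pairs, at 0.98, 0.86, -0.75 and 0.73 in the same order, and Cxcl5 was at the floor on both sides of every pair. Of the other members, Cxcl15 was higher in 4 of 4 pairs (0.09 to 0.22), and Ccl25 (-0.27 to -0.06) and Cxcl17 (-0.12 to -0.04) were lower in 4 of 4; no test was made. Pair 64 differed from the others. Its secondary tumour exceeded the primary by 1.88 for Ccr1 and 1.51 for Ccl9, while the other 3 pairs were lower for both.

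**Figure D5:**
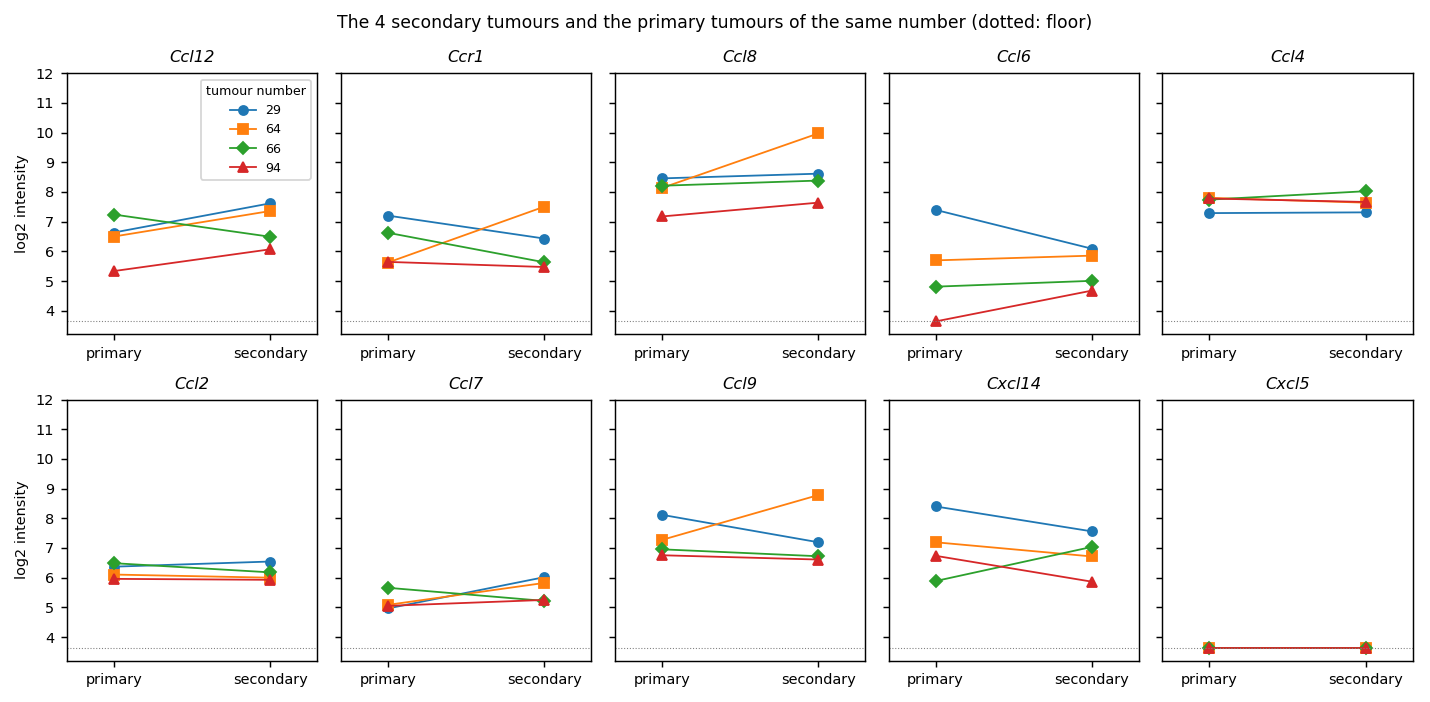
Log2 intensity of the 10 called members in the 4 secondary tumours and the primary tumours of the same number, joined by a line for each number. Ccl8 rises in all 4 pairs, by 0.16 to 1.84, and Cxcl5 lies at the floor on all 8 arrays.

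Macrophage markers separated tumour tissue from cultured cells, as Ccl12, Ccr1 and Ccl4 did. Of the 15 markers, C1qa, Cd163 and Mpeg1 were at the floor in all osteoblast cultures, and Cd163 in all lines. In all, 14 rose in primary tumours and 12 in secondary tumours against osteoblasts (6.58% and 7.71% of all tested genes rose), and 14 fell in lines against primary tumours (7.03%). In lines against osteoblasts 0 were called in limma, with 2 at an unadjusted p below 0.05, where 8.22% of all genes were called. Of 14 endothelial markers, 11 rose in primary and 9 in secondary tumours against osteoblasts, with the same shares of 6.58% and 7.71% over all genes. The mean of 15 T and natural killer cell markers stayed between 4.50 and 5.01 on all arrays. The part of endothelium in the chemokine differences was not tested.

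Among the 15 primary tumours, the level of 21 members was correlated with the macrophage marker mean. Cxcl1, Cxcl5 and Cxcl17 were left out, because 1 gap between tumours took more than 50% of their range. For Cxcl17 only tumour 188, at 7.48, lay above that gap. By Pearson correlation 4 passed after Benjamini-Hochberg adjustment over the 21, with permutation tests. Cxcl14 had r = 0.726 (permutation p = 0.00222, adjusted p = 0.0276; rho = 0.711, permutation p = 0.00425) and Ccr1 had r = 0.713 (permutation p = 0.00263, adjusted p = 0.0276; rho = 0.650, permutation p = 0.01). Ccl12 had r = 0.675 (permutation p = 0.00593, adjusted p = 0.0415; rho = 0.568, permutation p = 0.0301) and Ccl9 had r = 0.650 (permutation p = 0.00859, adjusted p = 0.0451; rho = 0.607, permutation p = 0.0183). By Spearman correlation 0 passed, with adjusted permutation p of 0.0764 to 0.105 for these 4. Without tumours 94 and 12, the farthest from the median of the marker mean, r was 0.7, 0.655, 0.391 and 0.543 in the same order and 0 passed among the other 13. Within the 7 primary tumours of the first set r was 0.838, 0.893, 0.902 and 0.958, and within the 8 of the other 0.573, 0.649, 0.230 and 0.451. Of these 4, Cxcl14 and Ccl9 were lower in primary tumours than in osteoblasts. The other ligands called higher in primary tumours did not pass over all 15: Ccl6 had r = 0.627, Ccl8 0.083 and Ccl4 -0.193 (adjusted permutation p = 0.0504, 0.796 and 0.625). Cxcl9 ran the other way, at r = -0.544 (adjusted permutation p = 0.126).

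Other chemokines and receptors, whose symbols follow another scheme, were read from a list of 14, of which 12 were tested. In primary tumours against osteoblasts 2 rose (6.58% of all genes), Pf4 (3.53 ± 0.41), a chemokine of platelets and macrophages, and Cx3cr1 (1.37 ± 0.19), the fractalkine receptor of monocytes and resident macrophages. In the same comparison 3 fell (11.9% of all genes): Rarres2 (-3.89 ± 0.38), which encodes chemerin, and the scavenging receptors Ackr4 (-1.31 ± 0.23) and Ackr3 (-1.13 ± 0.44). Secondary tumours differed from osteoblasts in Pf4 (2.72), Cx3cr1 (1.58), Rarres2 (-4.42) and Ackr4 (-1.18), where 18.5% of all genes were called. Lines were below primary tumours in Pf4 (-3.29) and Cx3cr1 (-1.37; 7.03% of all genes fell) and below osteoblasts in Rarres2 (-3.66; 6.64%). Secondary tumours were above lines in Pf4 (2.48) and Cx3cr1 (1.59; 8.4%).

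Of 28 genes of receptor signalling, 23 were tested. In primary tumours against osteoblasts, where 6.58% of all genes rose and 11.9% fell, 5 rose, among them Ncf1 (3.14), a subunit of the phagocyte oxidase, the leukocyte GTPase Rac2 (2.02), the actin regulator Was (1.58) and the G protein subunit Gng2 (1.19), and 2 fell, the receptor kinase Grk5 (-1.86) and the focal adhesion family kinase Ptk2b (-1.65). In secondary tumours, with 7.71% of all genes rising and 10.8% falling, 6 rose, led by Ncf1 (2.70) and Rac2 (2.34), and 2 fell, Ptk2b (-1.78) and Grk5 (-1.16). Lines against primary tumours (7.03% of all genes lower, 4.72% higher) gave 7 lower, led by Ncf1 (-2.87) and Rac2 (-2.17), and 2 higher, Grk5 (1.10) and Prkcb (1.09). Lines against osteoblasts (1.58% of all genes higher, 6.64% lower) gave 1 higher, Was (1.07), and 2 lower, Rgs2 (-2.83) and Ptk2b (-2.03). Secondary tumours against lines (8.4% higher, 4.77% lower) gave 7 higher, led by Rac2 (2.49), and 1 lower, Prkcb (-1.33).

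Of 16 tested regulators of the NF-kB and interferon pathways, 1 was called in primary tumours against osteoblasts, where 18.5% of all genes were: the pattern receptor Tlr2 (1.03 ± 0.28), which was also the 1 called in secondary tumours (1.25 ± 0.34; 18.5%). Nfkb2, which encodes an NF-kB subunit, was the 1 called in lines against primary tumours (1.37 ± 0.31; 11.7%) and in secondary tumours against lines (-1.13 ± 0.38; 13.2%). Of 13 interferon response genes, 5 fell (11.9% of all genes) and 1 rose (6.58%) in primary tumours against osteoblasts, led by Ifit1 (-3.25) and Bst2 (-3.19) with Rsad2 rising (1.71). In lines against primary tumours 5 rose (4.72% of all genes), led by Bst2 (3.24) and Usp18 (2.48). Secondary tumours had 2 lower (10.8% of all genes) and 1 higher (7.71%) than osteoblasts, Bst2 (-2.28), Ifit3 (-1.57) and Rsad2 (1.71), and 2 lower than lines (4.77%), Bst2 (-2.32) and Ifit3 (-1.78).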

How the data were processed

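RNA of 26 samples was copied from its poly(A) end into biotin-labelled cRNA and hybridised to 1-colour oligonucleotide arrays, per the labels' protocols. Each deposited file gives 1 linear intensity for every probe set. The authors' software, background correction and scaling are not stated in the labels used here. Of 45101 probe sets 64 are controls. Groups were taken from the labels. Array number limits the precision.

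Values under the 20th percentile of all deposited intensities were set to it, and log2 was taken with no further normalisation. Symbols came from the platform annotation: 34945 probe sets carried 1 symbol, 932 several and 9211 none. Genes in 27344 kept probe sets were fitted in 1 model over all 26 arrays (R 4.3.3, limma 3.58.1, lmFit and eBayes), with Benjamini-Hochberg adjustment over 12887 genes. A gene was called at an adjusted p below 0.05 and a difference of at least 1 on the log2 scale. The method was tested on simulated data. The members, gene lists, motifs and named-gene rule (values per array for members called or spanning at least 3 log2 units, and up to 4 called genes per list and comparison) were chosen with earlier results of these data known.

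Secondary tumours' deviations correlated with those of the same-numbered primary tumours (r = 0.449, 0.302, 0.224 and 0.642 for 29, 64, 66 and 94), which paired them. The closing section gives the alternatives: scaling, floor, filter, probe set, array weights, sets of arrays, blocks and omitted samples.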

Additional observations from a re-analysis of the deposited data

Results flagged for a closer look

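Cxcl2 in cell line 213 read 4.13, while the other 3 lines read 3.64 to 3.65. The gap was 0.977 of the group's range, above Dixon's critical value for 4 arrays. Of 45 groups examined this was the 1 that exceeded it, and chance exceeds it in about 1 in 20. The value lies close to the floor.

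A probe set shared by Ccl21a and near-identical copies, which entered no comparison, read 7.76 in primary tumour 188. It was at the floor in all 3 osteoblast cultures and above them on 10 arrays of other groups.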

How the results depend on the processing

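The members called in a comparison, with Cxcl2 and Cxcl10, were recomputed, and none of their recomputed differences reversed. With the primary tumours of the secondary tumours' own set, Ccl4 and Ccl27a, neither called, turned from lower to higher in secondary against primary tumours (0.04 and 0.08). Recomputed values kept their side of the threshold in 442 cases, lost it in 15 and gained it in 15. The setting without primary tumours 183 and 188, which were picked by their values, is among these cases. With single samples left out the numbers kept, lost and gained were 504, 27 and 1. Counts of called members stayed within 1.5 times the main count, apart from these: cell lines against osteoblasts gave 1 with quantile normalisation and 4 with array weights (2 in the main setting), and secondary against primary tumours gave 1, Ccl2, with the primary tumours of the other set of arrays (0 in the main setting). With single samples left out, counts ranged from 5 to 10 for primary tumours against osteoblasts (5 without osteoblast culture 1), 1 to 2 for lines against osteoblasts, 6 to 10 for secondary tumours against osteoblasts, 7 to 8 for lines against primary tumours, 5 to 5 for secondary tumours against lines and 0 to 0 for secondary against primary tumours. The macrophage marker correlations called 4 members in the main setting, and 0 without the 2 farthest tumours, 0 in the set of 8 primary tumours and 0 by Spearman correlation; the cause was not tested. They called 4 in the set of 7 (Ccl12, Ccl6, Ccl9 and Ccr1, adjusted permutation p = 0.0167 to 0.0437). Without tumours 183 and 188, r was 0.761 for Cxcl14, 0.804 for Ccr1, 0.662 for Ccl12, 0.730 for Ccl9 and 0.745 for Ccl6, given without a test.

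The setting without primary tumours 183 and 188 was chosen after seeing the data. These tumours were picked by their values, so no counts are given for it. The differences of Ccl2, Ccl7 and Cxcl5 without them are given above. With tumour number as a random block the counts were 9, 2, 8, 7, 6 and 0, in the order of the counts with single samples left out. Cell lines share numbers with 3 primary tumours, but their deviations did not correlate (r = 0.0355 to 0.0813); the replicate block there gave 6 called members, against 9 in the same samples without it. Besides Ccl2 in secondary tumours against osteoblasts, the random block changed the call of Ccl6 in secondary tumours against lines (1.83, adjusted p = 0.0378); the block in the line and primary pairs lost Ccl7 (2.41, adjusted p = 0.0662), Ccl8 (-1.52, adjusted p = 0.0605) and Ccr6, and changed no other call. Scaling moved the median difference of all genes between lines and osteoblasts from -0.10 to 0.08. With 3 osteoblast arrays and a floor, dim genes have little precision.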
